A study of Arabidopsis thaliana with 24 samples.

Results

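Strong and stable peaks are the stretches of the seedling genome where acetylation of lysine 9 of histone H3 (H3K9ac) was high in every combination of genotype and light and differed little among them. Peaks were chosen by their signal alone. All 6 group values had to be at least 0.9, and the largest had to exceed the smallest by less than 25%. Of 19435 peak entries 1393 (7.17%) met both conditions. They stand for 1227 separate intervals, because an interval assigned to more than 1 gene is listed once for each, and they are assigned to 1387 of the 17672 genes in the table.

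H3K9ac was measured by chromatin immunoprecipitation and sequencing (ChIP-seq) in whole 2-day-old Arabidopsis seedlings. Wild type (wt) was Columbia-0, and pifq is the pif1 pif3 pif4 pif5 mutant, which lacks the quartet of phytochrome interacting factors that hold seedlings in the dark growth programme. Both genotypes were kept in true darkness (D), given 1 h of red light at 10 µE following 47 h in the dark (R1h), or raised in continuous white light (WLc) of 100 µE. Dark-grown and R1h seedlings came from seeds given white light to induce germination and a far-red pulse, and whether WLc seeds had this pulse is not clear from the sources used here. Seeds of all groups were kept cold in darkness before growth. Each ChIP used 2.5 g of tissue and 5 µg of antibody. Each of the 6 groups had 3 H3K9ac libraries, 18 in all beside 6 inputs, but the table holds 1 pooled signal per peak and group. No spread between libraries, standard deviation or test can therefore be given, depth per library is unknown, and every difference below is a difference between 2 pooled values. The signal is expressed per base of peak, so peaks of different length can be compared. Because whole seedlings were used, a high value in many cells and a higher value in fewer cells cannot be told apart.

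Histone acetyltransferases add acetyl groups to lysine 9 of histone H3 and histone deacetylases remove them. The mark lies on the first nucleosomes downstream of the start of transcribed genes and is associated with open chromatin and active transcription. In seedlings the mark is known to follow the light-driven changes of many photosynthesis and growth genes. Peaks that stay high in darkness and light could be candidates for reference loci in ChIP, but whether they suit that use was not tested.

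The sequences below come from the TAIR10.1 reference and are examples of what lies under and before such peaks. They do not set members apart from other peaks. The first set shows 150 bases from the centre of the peaks of AT5G66330 (chr5:26501101-26501250, minus strand), GAI (chr1:5150102-5150251, plus strand) and SCR (chr3:20070851-20071000, plus strand). All 3 stretches lie wholly in coding sequence and are written in the direction of the gene, with each CG dinucleotide in capitals. They hold 12, 8 and 5 CG. The 150 bases from the centre of the GAPC1 peak, which is not a member, hold 5 CG with 4 coding bases.
AT5G66330: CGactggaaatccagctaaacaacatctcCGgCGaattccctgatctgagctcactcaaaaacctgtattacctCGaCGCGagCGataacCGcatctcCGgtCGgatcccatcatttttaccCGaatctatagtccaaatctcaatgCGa
GAI: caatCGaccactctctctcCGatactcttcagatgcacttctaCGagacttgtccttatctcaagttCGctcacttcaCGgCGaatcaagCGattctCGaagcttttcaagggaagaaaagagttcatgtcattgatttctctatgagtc
SCR: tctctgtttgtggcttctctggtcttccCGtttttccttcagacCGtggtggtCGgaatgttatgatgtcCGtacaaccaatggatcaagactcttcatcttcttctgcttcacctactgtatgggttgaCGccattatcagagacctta

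The second set shows 150 of the bases before the transcriptional start site (TSS) of 3 members, each chosen as the member of highest mean signal in the gene lists whose promoter holds the motif. Capitals mark the motif. AT5G66770, a GRAS transcription factor gene, has the G-box CACGTG, a binding sequence of PIF and other basic helix-loop-helix and bZIP factors (chr5:26660061-26660210, plus strand). HAE, the receptor kinase gene of floral organ abscission, has the site II element TGGGCC on the other strand, an element known from promoters of proliferation and housekeeping genes (chr4:14077426-14077575, plus strand). AT1G77940, a ribosomal protein gene, has the telo-box AAACCCTA, common before genes of the translation machinery, directly at the start (chr1:29305412-29305561, minus strand).
AT5G66770: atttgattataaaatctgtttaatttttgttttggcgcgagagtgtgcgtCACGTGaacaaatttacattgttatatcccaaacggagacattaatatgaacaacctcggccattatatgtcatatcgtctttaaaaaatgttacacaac
HAE: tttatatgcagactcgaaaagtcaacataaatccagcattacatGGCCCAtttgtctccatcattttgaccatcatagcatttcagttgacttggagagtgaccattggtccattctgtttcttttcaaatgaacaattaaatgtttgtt
AT1G77940: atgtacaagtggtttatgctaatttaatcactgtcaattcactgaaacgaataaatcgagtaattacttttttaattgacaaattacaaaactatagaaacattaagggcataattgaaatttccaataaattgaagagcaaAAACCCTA

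The members had a median signal of 1.05 in wt D, 1.05 in wt R1h, 0.977 in wt WLc, 1.03 in pifq D, 1.04 in pifq R1h and 1.03 in pifq WLc. Over all entries the 6 medians lay between 0.711 and 0.723. The mean of the 6 values ran from 0.912 to 1.37 among the members, with a median of 1.03, and the ratio of the largest to the smallest value had a median of 1.13. The ratio was below 1.1 in 400 members (28.7%), below the limit of 15% excess in 924 and below 1.2 in 1248. Of the 1477 entries that reached 0.9 in all 6 groups, 94.3% also met the ratio limit, against 46.5% of the 17958 entries with a value below 0.9. These values chose the members and are given as a description.

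**Figure D1:**
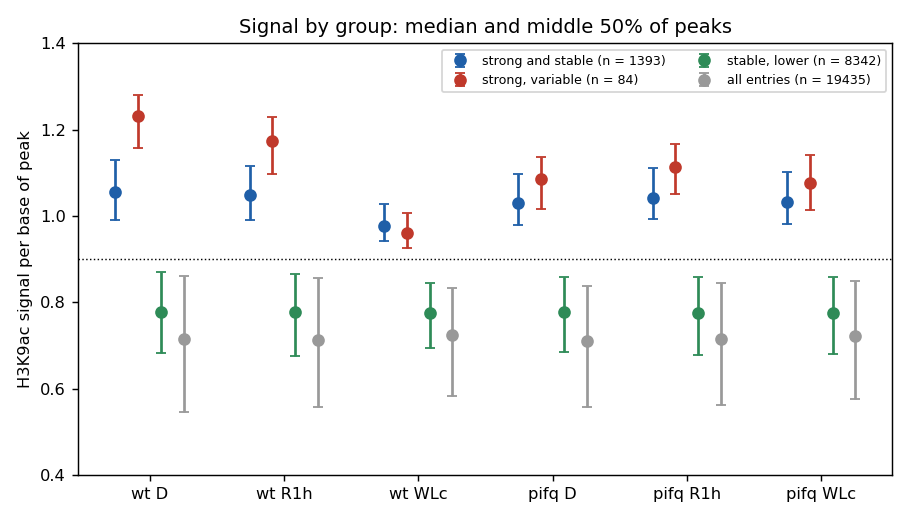
H3K9ac signal per base of peak (y axis) in the 6 groups (x axis) for strong and stable peaks, strong but variable peaks, stable peaks of lower signal and all entries. Points are medians over peaks and bars the middle 50% of peaks, not replicate error, and the dotted line is the 0.9 limit. The members' medians lie between 0.977 and 1.05, with the lowest in wt WLc as deposited and in wt D once columns are made equal by quantiles.

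Within the narrow range that the rule allows, the groups did not share the lowest place equally. The lowest of the 6 values was that of wt WLc in 889 of the 1393 members (63.8%), and the highest was that of wt WLc in 12. The highest value was in wt D in 475 members. Over all entries wt WLc was lowest in 20.4%, and in the strong but variable peaks, which reach 0.9 in all groups but exceed the ratio limit, in 73 of 84 (86.9%). The place of wt WLc is thus shared with the other strong peaks, and it is read from values that the rule used. The order depended on the scaling of the columns. With equal column medians wt WLc was lowest in 1000 of the members, and with trimmed means (TMM) in 858. It changed only with quantiles, which give every column the same distribution. With the columns made equal by quantiles the members' median was 1.04 in wt WLc and 1.02 in wt D, and wt WLc was lowest in 191 of the same peaks. The wt WLc column spans less at its upper end, with a highest value of 1.28 in the table against 1.54 in wt D, and what sets this was not tested.

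Differences of at least 1.1-fold were counted in each light or genotype comparison. After R1h 47 members (3.37%) were higher in wt and 74 (5.31%) lower, beside 24.0% and 20.9% of all entries. In wt WLc against wt D, 11 (0.790%) were higher and 537 (38.5%) lower, beside 30.4% and 30.2% of all entries. In pifq D against wt D, 54 (3.88%) were higher and 137 (9.83%) lower, beside 26.7% and 26.0%. Within pifq, R1h against D gave 50 (3.59%) higher and 6 (0.431%) lower, beside 17.3% and 15.4%, and WLc against D gave 72 (5.17%) higher and 69 (4.95%) lower, beside 24.5% and 20.3%. The rule used these contrasts, so nothing is read from the counts, and the comparisons with wt D or with pifq D share their control.

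The member of highest mean was the peak on AT5G66330 (chr5:26500449-26501901), a gene of a leucine-rich repeat protein. Its signal was 1.4004 in wt D, 1.32 in wt R1h, 1.28 in wt WLc, 1.39 in pifq D, 1.43 in pifq R1h and 1.43 in pifq WLc. The wt WLc value was the lowest of the 6, and it was also the highest wt WLc value in the whole table. AT5G01830, which encodes an ARM repeat protein, followed with 1.44, 1.39, 1.17, 1.37, 1.397 and 1.32 in the same order of groups. Next came the subtilase gene AT3G14067, with 1.43, 1.39, 1.19, 1.33, 1.36 and 1.38. Of the 12 members with the highest means, 11 lie on genes with a single exon. The exception, AT2G44735, is listed for the same interval as the single-exon transcription factor gene AT2G44730 on the other strand, and the reads of an unstranded ChIP cannot be assigned to either.

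The remaining genes among these 12 have known or predicted roles in regulation and in the cell wall. They are the GRAS genes AT5G66770 (mean signal 1.34) and AT3G50650 (1.30), the leucine-rich repeat gene AT4G18670 (1.33), the RING finger gene RDUF2 (1.33), the transcriptional regulator gene ASIL2 (1.32), XT1 (1.30), which encodes a xyloglucan xylosyltransferase, and ARO3 (1.30), an armadillo repeat gene. In each of them wt WLc was the lowest group as deposited.

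The smallest ratios were found at several levels of signal, although the 0.9 limit itself allows members of low mean only a small ratio. AT3G17850, a protein kinase gene, had 0.901 in wt D, 0.918 in wt R1h, 0.905 in wt WLc, 0.917 in pifq D, 0.923 in pifq R1h and 0.911 in pifq WLc, a ratio of 1.02. PRA1.A2, a prenylated RAB acceptor gene, had a ratio of 1.03 with values from 0.919 to 0.945. AT1G15730, a CobW-like gene, combined a ratio of 1.03 with a mean of 1.08. Further entries with small ratios (1.04) were the HSP20-like gene AT1G76440 and SP1L3, AT3G02190 and AT3G02200, which share 1 interval.

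Near the limits members and other peaks could hardly be told apart. Just inside the signal limit stood PMR6, DCAF1 and ORA47, whose lowest values were 0.90002, 0.90012 and 0.90002. Just outside stood GATA2 and PVA12 at 0.89992 and ROC3 at 0.89988. Just inside the ratio limit were AT2G15320 and ROC1 at 1.248 and AT5G66790 at 1.247. The interval shared by AT2G38240 and PDX1.1 at 1.2505 and AT1G07030 at 1.2507 lay just outside.

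**Figure D2:**
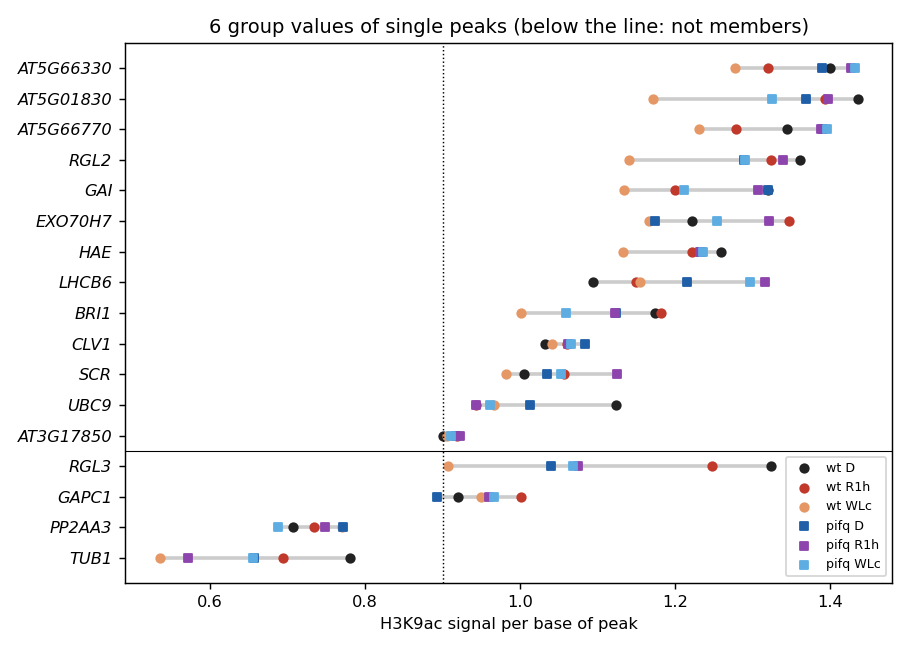
H3K9ac signal per base of peak (x axis) in the 6 groups for 13 members and, below the line, 4 peaks that are not members. Each symbol is 1 pooled group value, the grey bar joins lowest and highest, and the dotted line is the 0.9 limit. Among the members shown, the values of AT3G17850 lie closest together and those of AT5G01830 reach highest.

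Members covered more coding sequence than other stable peaks. Coding sequence made up a median of 53.4% of a member peak, against 32.0% in the 8342 stable peaks of lower signal (within the ratio limit, with a value under 0.9) and 39.7% over all entries. Introns made up 10.6%, 25.5% and 21.8% in the same order. In the 84 strong but variable peaks (all values at least 0.9, past the ratio limit) coding sequence reached 75.4%. GC content followed this order, with medians of 42.5% in members, 39.0% in stable peaks of lower signal, 45.5% in strong but variable peaks and 39.5% in all entries. The ratio of observed to expected CG dinucleotides was 0.98, 0.86, 1.147 and 0.85. No feature in this paragraph was part of the rule. Signal and base composition, the latter read from the reference sequence, were however taken over the same windows. Whether the signal was corrected for base composition is not given in the sources used here.

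The genes beneath the members had few exons. A single exon was annotated for 379 of the 1387 members found in the annotation (27.3%), against 16.2% of all entries, 11.8% of the stable peaks of lower signal and 48.2% of the strong but variable ones. The median number of exons was 3 in members and 5 over all entries. Among entries on single-exon genes 12.1% were members, and the share fell to 7.65% with 2 exons, 6.86% with 3 to 5, 5.55% with 6 to 10 and 5.07% with over 10. Among the members themselves single-exon genes made up 43.4% of the 25% with the highest means and 14.7% of the 25% with the lowest.

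Exon number and GC content moved together, and each was followed at a given level of the other. Entries were divided by GC content into classes of 25%. Members made up 0.761% of the lowest class and 3.83%, 9.34% and 14.7% of the next classes up to the highest. Within the highest class 18.5% of the entries on single-exon genes were members, against values between 12.6% and 13.8% for the classes with more exons. Within the lowest class no group by exon number exceeded 1.04%. The order by exon number did not hold at every peak length. Among the shortest 25% of entries 0.293% of those on single-exon genes and 2.41% of those on genes with 6 to 10 exons were members, whereas among the longest 25% the shares were 20.8% and 5.43%. The part of base composition, exon number and coding content in the level was not tested further.

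**Figure D3:**
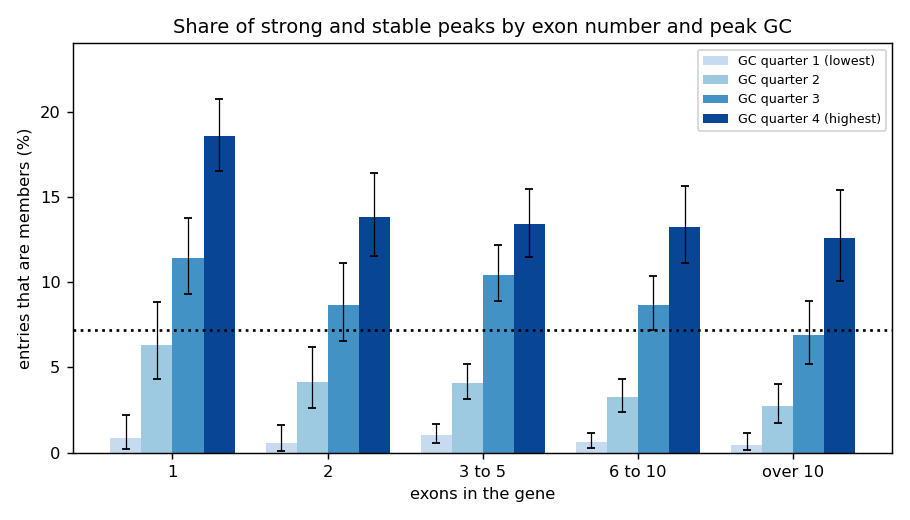
Percentage of entries that are strong and stable peaks (y axis) by number of exons in the gene (x axis) and by class of peak GC content (shades, each 25% of entries). Error bars are exact Clopper-Pearson 95% intervals over entries and cover counting error only, and the dotted line is the share over all entries, 7.17%. Shares rise from the lightest to the darkest bar in every exon class, up to 18.5% for single-exon genes in the highest GC class.

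Member peaks lay just downstream of the TSS, somewhat further in than other stable peaks. The peak centre had a median distance of 538 bp from the TSS in members, 406 bp in stable peaks of lower signal, 841 bp in strong but variable peaks and 457 bp over all entries. In 76.8% of the members the centre was within the first 1000 bp of the gene and in 6.20% it was upstream, shares near the 76.4% and 6.82% of all entries. The median peak spanned 1094 bp in members, 977 bp in stable peaks of lower signal and 886 bp over all entries. At the extremes, 1 interval of 6282 bp on chromosome 5 is listed for BG_PPAP, AT5G42110 and AT5G42090, and the shortest member, on AT4G30910, spans 109 bp. A protein-coding gene starting on the other strand within 1000 bp was present for 20.3% of members and 20.5% of all entries, and protein-coding genes made up 97.2% and 97.1%.

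GAI and RGL2 illustrate the single-exon genes. Both encode DELLA proteins, which restrain growth until gibberellin triggers their degradation. GAI had 1.32 in wt D, 1.1999 in wt R1h, 1.13 in wt WLc, 1.32 in pifq D, 1.31 in pifq R1h and 1.21 in pifq WLc, and its peak spans 2352 bp of a gene of 2434 bp. RGL2 had 1.36, 1.32, 1.14, 1.29, 1.34 and 1.29. The other DELLA genes were chosen for comparison after these values had been seen. RGA1 (mean 0.949) and RGL1 (0.992) fell short of 0.9 only in wt WLc and, for RGA1, pifq WLc. RGL3 reached 0.9 in all groups but ranged from 0.907 in wt WLc to 1.32 in wt D, the largest ratio (1.46) among strong peaks.

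Membership changed sharply along the chromosomes. When each chromosome was divided at multiples of 6 Mb, 3 of 23 segments held no member among their 1327 entries (chromosome 1 from 12 to 18 Mb, chromosome 3 from 12 to 18 Mb and chromosome 4 from 0 to 6 Mb). At the other end, 30.3% of the 155 entries of chromosome 4 beyond 18 Mb and 25.6% of the 399 entries of chromosome 2 beyond 18 Mb were members. The segments without a member had median mean signals from 0.453 to 0.540 and median peak lengths from 1251 to 1301 bp, whereas the richest segments had medians of 0.880 and 0.870 and lengths of 751 and 753 bp.

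Several changes lay at the 6 Mb multiples themselves. For the 100 intervals on each side, the median of the mean signal was 0.416 before and 0.777 after 18 Mb on chromosome 3, while the median peak length went from 1201 to 705 bp. On chromosome 1 it was 0.698 before and 0.421 after 12 Mb, and 0.491 before and 0.687 after 18 Mb. On chromosome 2 it was 0.710 before and 0.858 after 18 Mb, where 5 of the 100 intervals before and 22 of those after were members. The level differed by at least 1.2-fold at 7 of 16 such multiples and at 1 of 19 points midway between them. Where peaks are sparse, 100 intervals cover a wide stretch. They reached 3.94 Mb to the left of 6 Mb on chromosome 2 and 4.23 Mb to the right of 12 Mb on chromosome 3. At the 1 midpoint, 15 Mb on chromosome 3, they reached 4.48 Mb to the left. These 3 differences therefore compare broad regions and do not place a step at the point itself. Segments and midpoints were chosen after the values had been seen. What sets the steps was not tested, but a limit of 0.9 applied to the whole genome does not select the same fraction of loci on both sides of them.

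**Figure D4:**
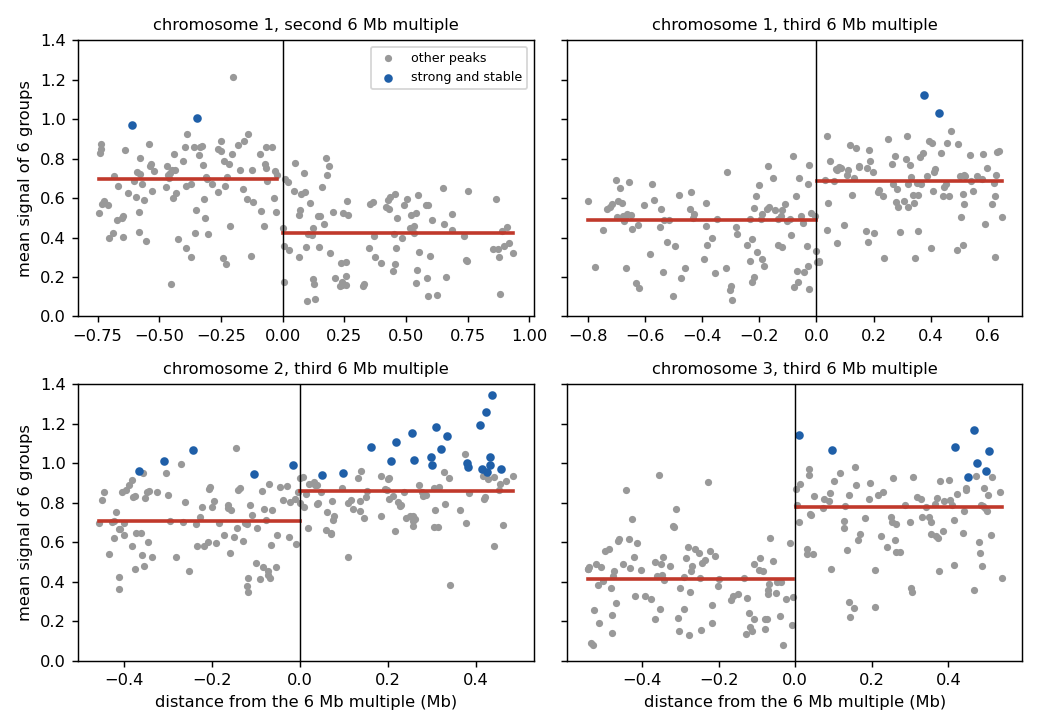
Mean H3K9ac signal of the 6 groups (y axis) for the 100 peak intervals on each side of 4 multiples of 6 Mb (x axis, distance in Mb), with members in blue, other peaks in grey and the median of each side as a red line. On chromosome 3 the median is 0.416 on the left and 0.777 on the right, and no member lies on the left.

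The features of members held within the segments. In all 16 segments with at least 20 members, members had a higher median GC content (by 1.62 to 3.99 percentage points), a larger share of single-exon genes (by 3.46 to 32.2 percentage points) and longer peaks (by 149 to 1100 bp) than the other entries of the same segment. When each segment was instead scaled to the median of all entries, an alternative added after the data had been seen, 1013 entries met the rule and 624 of the 1393 members were among them (44.8%). Of the 1013, 30.8% lay on single-exon genes.

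Members were spread over many kinds of gene. Of the 30 gene lists, 14 had a larger share of members than the 7.17% of all entries. Exact 95% intervals, which cover counting error only, lay above this share for 1 list (vesicle coat, SNARE and exocyst genes) and below it for 1 (disease resistance genes), and included it for the others. The intervals were not adjusted for the number of lists, so 1 list on either side is not read as a result. Vesicle coat, SNARE and exocyst genes had 23 members among 162 entries (14.2%) and a median of the mean signal of 0.789, against 0.710 over all entries. The exo70 genes of the exocyst alone had 8 members among 16 entries. Core histones had 4 of 31 (12.9%), mitochondrial respiration 11 of 93 (11.8%), ubiquitins and their conjugating enzymes 5 of 44 (11.4%), chromatin proteins 13 of 117 (11.1%), F-box proteins 17 of 168 (10.1%) and transcription factors 68 of 745 (9.13%). In a repeated segment of chromosome 1 all 5 F-box entries were members, and the values of these near-identical copies are uncertain. Protein kinases had 56 of 704 (7.95%), a share near that of all entries.

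**Figure D5:**
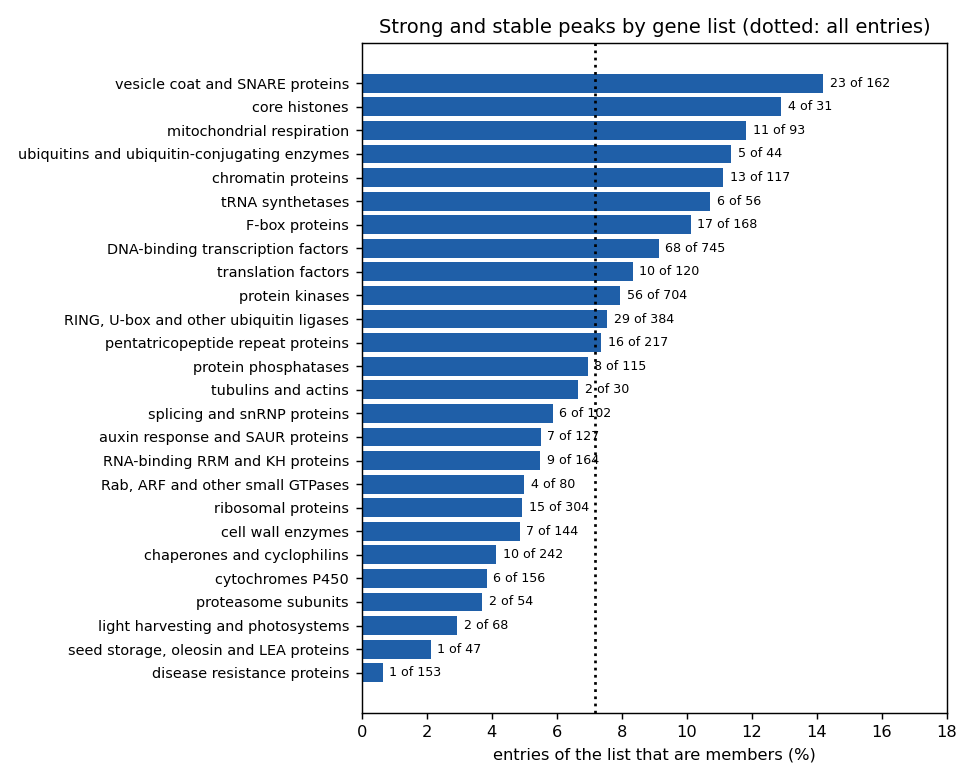
Percentage of the entries of each gene list that are strong and stable peaks (x axis), for lists with at least 30 entries, with the counts beside the bars. The dotted line marks 7.17%, the share over all entries. Vesicle coat and SNARE proteins have the longest bar at 14.2% and disease resistance proteins the shortest at 0.654%.

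The vesicle list was led by subunits of the exocyst, the complex that tethers secretory vesicles to the plasma membrane. EXO70H7 had 1.22 in wt D, 1.35 in wt R1h, 1.17 in wt WLc, 1.17 in pifq D, 1.32 in pifq R1h and 1.254 in pifq WLc. It was higher after R1h than in D in both genotypes, by less than the ratio limit. EXO70D3 (mean 1.19), EXO70B1 (1.17) and EXO70H6 (1.14) followed. Succinate dehydrogenase genes led the respiration list, with SDH4 (1.13), SDH3-2 (1.05) and SDH1-1 (1.03).

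Among regulators, the transcription factor list was led by AT2G44730, AT5G66770, ASIL2 and AT3G50650, described above. PP2CA (mean 1.22) and ABI1 (1.07), phosphatases that hold back abscisic acid signalling, were members. ARF10 (1.13) and ARF2 (1.07) encode auxin response factors. The E3 ligase list was led by RDUF2, AT3G57120 led the kinases (1.30), and ELC, an ESCRT component that binds ubiquitin, had a mean of 1.21.

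Lists of genes that every cell uses lay on both sides of the share over all entries. Core histones, respiration, tRNA synthetases (6 of 56, 10.7%) and translation factors (10 of 120, 8.33%) lay above it. Ribosomal protein genes had 15 members among 304 entries (4.93%), although 52.0% of their entries met the ratio limit, and their median mean signal was 0.754. Proteasome subunits had 2 of 54 (3.70%), with 83.3% within the ratio limit. For vacuolar proton pumps the figures were 1 of 17 and 94.1%. The median exon numbers of these last lists were 4, 9 and 11. Those of the lists above the share overlapped with them. They were 1 for core histones, 4 for respiration, 10 for tRNA synthetases and 6 for translation factors.

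Some lists had few peaks within the ratio limit. Light harvesting and photosystem genes had 2 members among 68 entries (2.94%), and 10.3% of the entries met the ratio limit, against 50.1% over all. The members were LHCB6 and LHCB4.2, minor antenna proteins of photosystem II. LHCB6 had 1.09 in wt D, 1.15001 in wt R1h, 1.155 in wt WLc, 1.22 in pifq D, 1.32 in pifq R1h and 1.30 in pifq WLc. Its lowest value was in dark-grown wild type, unlike that of most members, and its peak interval of 3640 bp has its upstream edge at -2381 bp from the TSS. LHCB4.2 was likewise lowest in wt D (0.975) and highest in pifq WLc (1.16). Cytochromes P450 had 6 members of 156 (3.85%), disease resistance genes 1 of 153 (0.654%), and seed storage and late embryogenesis genes 1 of 47 (2.13%). Their signal was low as well, with median means of 0.607, 0.542 and 0.537 against 0.710 over all entries. None of the 23 entries of light signalling genes was a member, and 5 of them were stable peaks of lower signal.

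Genes in common use as references for quantitative PCR were mostly within the ratio limit. Of 18 entries on 16 such genes, 77.8% met it and 2 (11.1%) were members, beside 50.1% and 7.17% over all entries. Their median mean signal was 0.815. UBC9 had 1.12 in wt D, 0.943 in wt R1h, 0.966 in wt WLc, 1.01 in pifq D, 0.942 in pifq R1h and 0.961 in pifq WLc. The TIP41-like gene AT4G34270 had 1.04, 0.992, 0.919, 0.988, 0.969 and 1.02. GAPC1 came close, with 0.893 in pifq D as its only value under 0.9. Neither reference of the study itself was a member. PP2AA3, used to normalise mRNA, was stable at lower signal, with values from 0.687 to 0.771. TUB1 was the reference of the study's ChIP-qPCR, which is shown for dark-grown and red-lit wild type. It had 0.780 in wt D, 0.694 in wt R1h, 0.535 in wt WLc, 0.657 in pifq D, 0.571 in pifq R1h and 0.655 in pifq WLc. Its ratio was 1.46 as deposited, with the highest value in wt D and the lowest in wt WLc. The study shows no ChIP-qPCR for wt WLc, so this ratio does not describe TUB1 in the samples where it served as reference.

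Genes whose mRNA changed after R1h in the study's list, measured by RNA sequencing and so apart from the rule, were seldom members. Members made up 7.17% of all entries. Of 626 entries on genes with higher mRNA 23 were members (3.67%), and of 399 entries on genes with lower mRNA 18 (4.51%). The ratio limit was met by 15.0% and 22.3% of these entries, against 50.1% over all. Of 292 entries on PIF direct target genes (PIF-DTGs) 9 were members (3.08%), and of 55 entries on the light-responsive subset (LRP-DTGs) 1 was, EXO70H7. The median mean signals of the PIF-DTG and LRP-DTG entries were 0.607 and 0.532. Entries on genes with higher and lower mRNA had 0.642 and 0.625, against 0.710 over all entries. The other PIF-DTG members were HAE, AT2G46160, EXO70D1, AT3G54000, AT1G76600, WRKY15, AT1G67590 and AT1G66890. HAE had 1.26 in wt D, 1.22 in wt R1h, 1.13 in wt WLc and 1.23 in pifq D, and 1.23 and 1.24 in pifq R1h and WLc.

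Among organ markers, SCR, the GRAS regulator of the root endodermis, was a member with 1.00 in wt D, 1.06 in wt R1h, 0.981 in wt WLc, 1.04 in pifq D, 1.12 in pifq R1h and 1.05 in pifq WLc. SHR, expressed in the root stele, ranged from 0.436 to 0.812. The leaf marker RBCS1A ranged from 0.521 in wt D to 0.964 in wt WLc. The share of organs in a seedling differs between dark and light, and its part in the peaks' values was not tested.

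Promoter motifs were found in members at shares near those over all entries, lower for the TATA box. Motifs were searched on both strands in the window from 250 bases before to 50 after the TSS. TATAAA was found for 46.7% of members, 51.0% of all entries and 48.8% of the promoters of all annotated genes. The site II forms TGGGCC and TGGGCT were found for 19.5% and 17.9% of members, 19.2% and 16.9% of entries, and 13.0% and 12.8% of all promoters. The telo-box AAACCCTA was found for 4.69%, 5.37% and 6.17% of members, entries and all promoters. The G-box CACGTG gave 8.36%, 8.71% and 6.46%, and the PIF-binding element CACATG 12.8%, 12.7% and 12.9%. The I-box GATAAG gave 15.7%, 14.9% and 15.1%, and the W-box TTGACC 15.2%, 14.3% and 13.5%. A match describes only the letters in the window.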

How the data were processed

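H3K9ac ChIP-seq was made by the authors from 18 libraries, with 6 inputs. Per their methods and the submitters' notes, Bowtie2 placed the reads, BayesPeak found the regions, DiffBind compared them, and peaks took the gene whose TSS was closest. The methods name TAIR9 and the notes TAIR10, which share chromosome sequences. The authors deposited 1 signal value per peak and group, per base of peak and scaled between groups. How the 3 libraries of a group were combined, and whether input was subtracted, is not given in the sources used here, nor is the depth. Library depth therefore sets no interval here. The 6 deposited signal columns were all used, and 0 columns were left without a group. Whether peak starts count from 0 or 1 is not stated.

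The rule (lowest signal 0.9, largest over smallest value exceeding 1 by less than 25%) was applied to the deposited signal. Gene models, exons, TSS, GC content and promoters came from the TAIR10.1 RefSeq annotation, in which 99.5% of entries were found. Gene lists used patterns on RefSeq product names, and 9 list patterns that had caught unrelated products were corrected after their matches were seen. Genes are named as the PCR references, the 12 highest means, the 8 smallest ratios, up to 4 members per list, peaks at the limits and the longest and shortest members. An entry that this rule names is not reported here. Others are described as chosen after their values were seen or as members of the study's lists. The members, lists and alternatives were chosen with earlier results of these data known. No test was made, since replicates are pooled. The rule and the scalings were tested on simulated data. Alternatives were other limits, equal medians, trimmed means (TMM), quantiles, 1 entry per interval, protein-coding genes, the nearest TSS, and, added later, scaling of 6 Mb segments. Python 3.11.15, numpy 2.4.6, pandas 2.3.3, scipy 1.17.1 and matplotlib 3.10.9 were used.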

Additional observations from a re-analysis of the deposited data

How the results depend on the processing

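No paired analysis was possible because the table holds 1 pooled value per group and the replicate numbers of the labels cannot be used. For the same reason no library could be left out. The number of strong and stable peaks was 3529 with a lowest signal of 0.8, 426 with 1.0, and 924 with a ratio limit of 15%. With the lowest signal at 0.8, 1.0 and, where it moved, a ratio limit of 15%, the median distance from the TSS was 472, 707.5 and 497.5 bp, GC content 41.2%, 44.0% and 41.9%, the share with a divergent neighbour 23.5%, 17.7% and 22.7%, and the share with 1 exon 20.7%, 37.4% and 21.2%. Median peak length was 1013 bp at 0.8, 1309 bp at 1.0 and 1045 bp with 1 entry per interval. At 1.0, 8 lists and 2 motifs lay above all entries, in place of 14 and 5. With 6 Mb segments scaled to one median, chosen after seeing the data, peak length was 1401 bp, distance 568 bp, GC content 41.9%, divergent neighbours 18.0%, 1 exon 30.8%, and 3 motifs lay above. Equal medians gave group medians of 1.056 (wt R1h), 0.968 (wt WLc), 1.04 (pifq D) and 1.02 (pifq WLc). Quantiles gave 1.02 (wt D), 1.02 (wt R1h), 1.04 (wt WLc), 1.04 (pifq D) and 1.04 (pifq R1h), with GC content 42.8%. The 1-exon alternatives were also added after seeing the data. Of 296 values for the 38 single lists and motifs, 269 stayed within the counting interval and 27 moved. With a lowest signal of 1.0 alone, 16 of the 38 moved and 22 stayed. The cause of these shifts was not tested.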

Other observations

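Families that shared many members were picked after their values had been seen, so their counts are a description without support from the choice. Members made up 7.17% of all entries. GRAS transcription factors, which include the DELLA and SCARECROW-like regulators, had 9 members among 32 entries (28.1%), with means from 1.01 to 1.34, and 7 of the 9 lay on single-exon genes. Besides those named in the report they were HAM2 (mean 1.22), HAM1 (AT2G45160, 1.155), SCL8 (1.1983) and AT2G37650 (1.01). Plant U-box ligases had 6 of 16 entries (PUB9, PUB25, PUB26, PUB29, PUB38 and PUB49), with means from 0.985 to 1.09. The exo70 genes had 8 of 16, fasciclin-like arabinogalactan genes, which encode cell surface glycoproteins, 6 of 14, and prenylated RAB acceptor genes 5 of 15. In each of these families single-exon genes made up between 57.1% and 81.2% of the entries. In the leucine-rich repeat receptor kinases and LpxC genes, picked in the same way, they made up 9.77% and 0%. Pentatricopeptide repeat genes, a list fixed beforehand, had 63.1% of entries on single-exon genes and 16 members among 217 entries (7.37%).

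Against 7.17% of all entries, leucine-rich repeat receptor kinases had 16 members among 133 entries (12.0%). They included BRI1, the brassinosteroid receptor, with 1.17 in wt D, 1.18 in wt R1h, 1.00 in wt WLc, 1.12 in pifq D, 1.12 in pifq R1h and 1.06 in pifq WLc. CLV1, a receptor of the shoot meristem, had 1.03, 1.06, 1.04, 1.08, 1.06 and 1.07 in the same order. The related BAM1 (mean 1.04) and BAM2 (1.08) were members too. The BRI1 peak spans 3345 bp of a gene of 4375 bp.

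A repeated segment of chromosome 1 carries 5 LpxC genes of lipid A synthesis and 5 F-box genes next to them. Of their 13 entries 11 were members, with means from 0.997 to 1.197. These genes are near-identical copies, and how reads that match several copies were counted is not given in the sources used here, so single values are uncertain.

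Of the H3K9ac writer and eraser genes that the study names, HAG1 was a member (0.9005 in wt WLc to 1.04 in pifq R1h). HD1 (HDA19) ranged from 0.653 to 0.839, and HAF2 from 0.203 in wt D to 0.533 in wt WLc. HAM1 (AT5G64610), a MYST-family acetyltransferase gene that shares its symbol with the GRAS gene, had a mean of 1.097 and a ratio of 1.04.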
